A study of Mus musculus with 10 samples.

Results

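The mitochondrial ribosomal proteins were taken as every gene of the deposited table whose symbol begins with Mrpl or Mrps followed by a digit, which gave 78 of 18223 genes. They were measured by RNA-seq in whole tumours of the mouse colon adenocarcinoma line MC38, grown under the skin, in 5 tumours of high burden (HTB) and 5 of low burden (LTB). The treatment label gives 2000000 for HTB and 500000 for LTB, both for 14 days, without saying what the number counts, and no tumour carries any other treatment or allele in the labels. The labels give no host strain, sex or age, nor is it said that each tumour came from a separate animal, so p-values measure the spread between these libraries. In whole-tumour RNA, fewer cells of a type and less RNA per cell cannot be told apart.

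Mitochondria carry their own ribosome, which translates the few proteins encoded in mitochondrial DNA, all of them core subunits of the respiratory chain and ATP synthase. All of its proteins are encoded in the nucleus, made in the cytosol and imported. Some descend from bacterial ribosomal proteins, and others are specific to mitochondria. The large subunit holds the peptidyl transferase centre and the exit tunnel, and the small subunit holds the decoding centre. By their known place in the mammalian mitoribosome, 51 of the 78 genes encode large subunit proteins, Mrps18a and Mrps30 among them despite their names, and 26 encode small subunit proteins. Mrps36 carries the name but is now known as a subunit of the 2-oxoglutarate dehydrogenase complex.

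The libraries held 24884292 to 27185168 estimated reads in HTB and 23070917 to 26880191 in LTB. HTB replicate 2 stood apart: its summed level of 12 skeletal muscle markers was 15808 CPM (counts per library scaled to 1e+06 reads), against 11.01 to 68.2 in the other HTB tumours and 7.01 to 10.0 in LTB, and its 10 adipocyte markers summed to 8321 CPM, against 102 to 112 in the other HTB tumours and 99.5 to 150 in LTB. LTB replicate 1 had the highest summed T cell markers, 352 CPM, against 47.4 to 101 in HTB and 105 to 166 in the other LTB tumours. The 9 epithelial carcinoma markers lay between 2.88 and 7.09 CPM in sum in HTB, against 6.60 and 16.2 CPM in LTB. Of the 9, Cdh1, the epithelial cadherin, made up most of the sum, with 3.44 ± 1.44 CPM in HTB and 8.87 ± 3.99 CPM in LTB (SD, n = 5 each). It was lower in HTB, with a log2 fold change of -1.36 and an edgeR adjusted p of 0.0332, and was 1 of the 2 tested. Epcam averaged 0.535 CPM in HTB and 0.997 CPM in LTB, and the other 7 markers averaged 0.27 CPM or less in each group. Values without each of the 2 libraries are given below for the groups of members and for several single members.

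No mitochondrial ribosomal protein gene passed the test for a difference between high-burden and low-burden tumours. All 78 passed the filter on low counts, with 259 to 2907 reads per gene and library, and 0 were called higher and 0 lower at an adjusted p under 0.05 by edgeR's quasi-likelihood test, against 11.4% of the 13469 genes tested (3.91% higher and 7.51% lower in HTB). At an unadjusted p under 0.05 the test marked 6 members, 7.69% of them, against 29.0% of all genes tested. DESeq2 called 1 member, against 18.6% of genes, limma voom 0, against 11.0%, and voom with sample quality weights 5, against 26.7%. In the authors' deposited table, 1 member had a q-value under 0.05, where 14.5% of the genes with a q-value did. Their p-value was under 0.05 for 7 members, and the share of all genes at that threshold was not counted.

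The differences were also bounded. The fitted log2 fold changes, HTB over LTB, ran from -0.30 to 0.19, while the 5th and 95th percentiles of all tested genes were -1.06 and 0.62. The 95% interval lay within a 2-fold change either way for 78 of 78 members, against 80.4% of all tested genes, and within a 1.5-fold change for 77 of 78, against 64.8%. The exception was Mrps28, a small subunit protein, whose interval reached down to -0.59. Standard errors of the members were 0.06 to 0.18 with a median of 0.10, against 0.11 over all tested genes, and the median spread within groups was 0.16 on the log2(CPM + 1) scale, against 0.17. Replicate spread of the members was thus close to that of all tested genes.

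**Figure D1:**
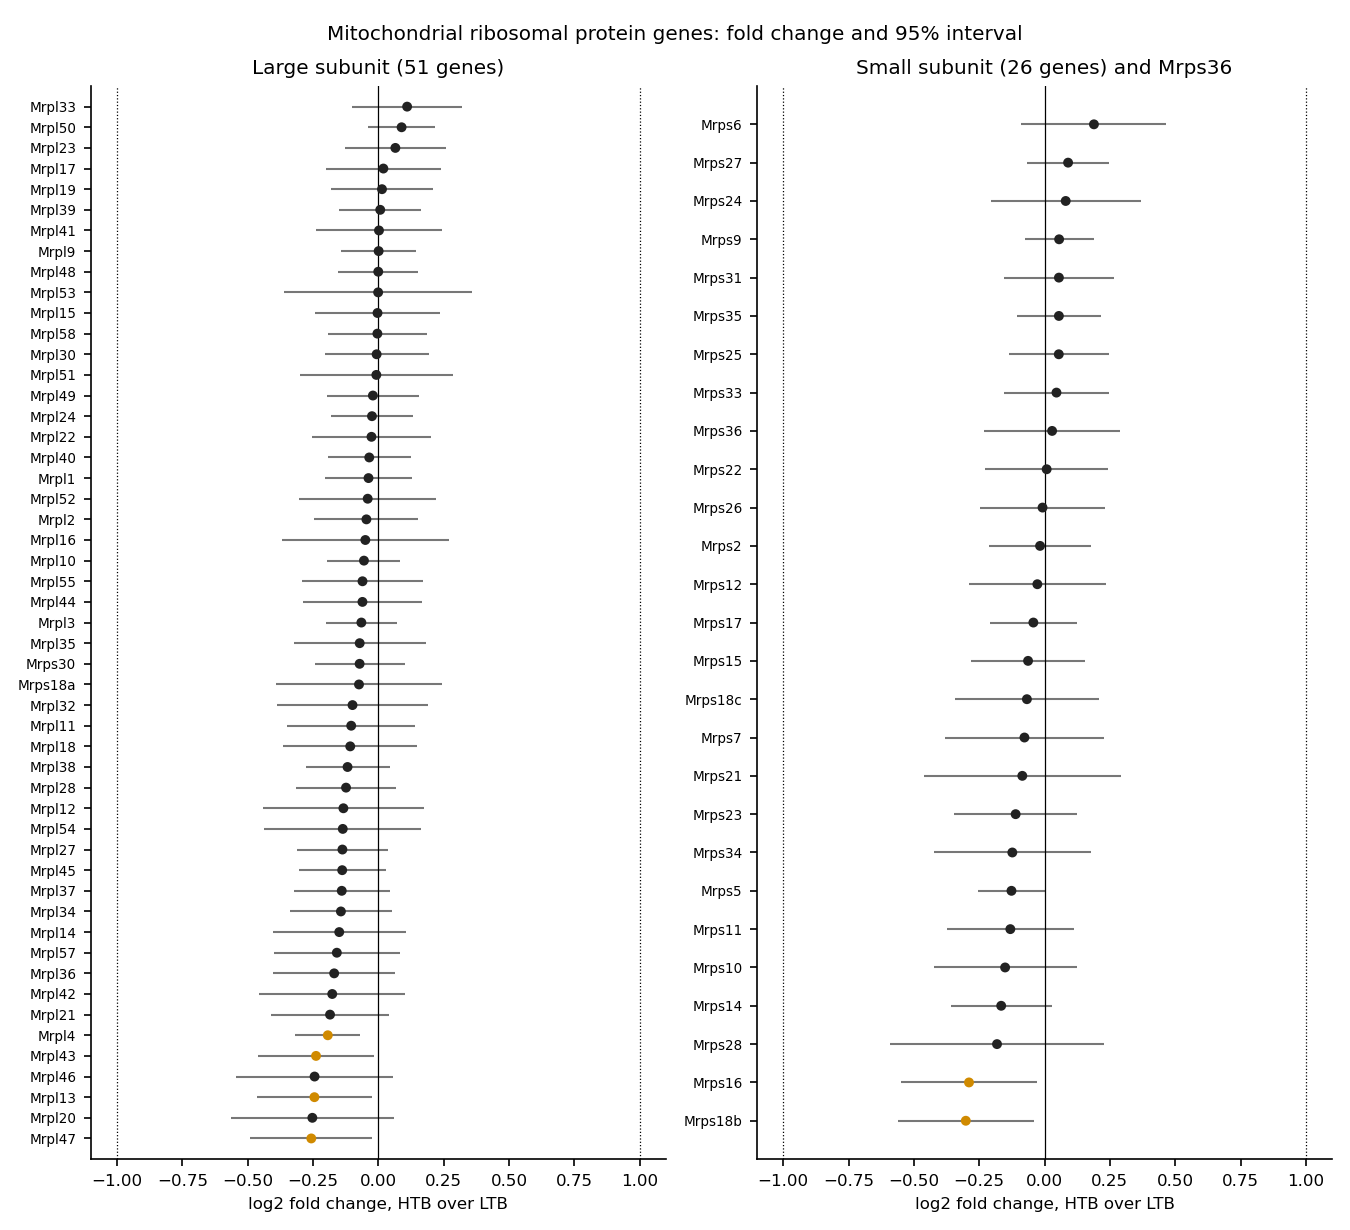
Fitted log2 fold change of each gene, HTB over LTB, with its 95% interval (line), for the 51 large subunit genes (left) and the 26 small subunit genes with Mrps36 (right), 5 tumours a group; dotted lines mark a 2-fold change either way and orange points the 6 genes with an unadjusted p under 0.05. All 78 intervals lie between the dotted lines, from a lowest bound of -0.59 for Mrps28 to a highest of 0.47 for Mrps6.

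**Figure D2:**
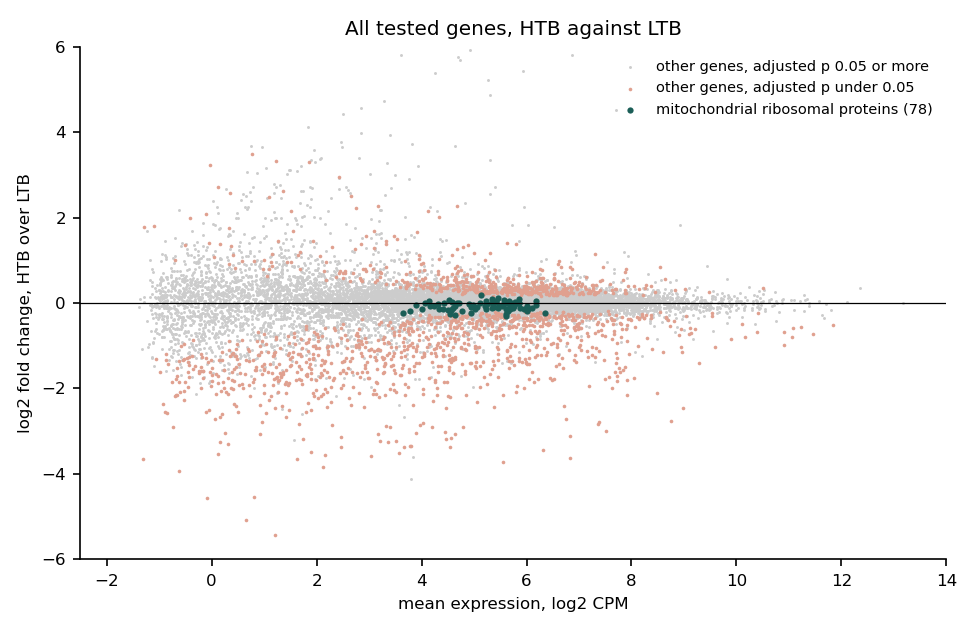
Fitted log2 fold change, HTB over LTB, against mean expression in log2 CPM for the 13469 tested genes; light red points have an adjusted p under 0.05 and dark green points are the 78 mitochondrial ribosomal protein genes. The members lie in a narrow band between -0.30 and 0.19, and 12 genes fall outside the plotted fold range.

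Small negative differences outnumbered positive ones, by a margin that moved with single libraries. The log2 fold change was below 0 for 60 of 78 members, 76.9%, against 47.3% of all tested genes, but for 37 of 78 once LTB replicate 1 was left out and for 69 of 78 without HTB replicate 2. The members' median was -0.06, against 0.02 over all tested genes. It was 0.01 without LTB replicate 1, -0.12 without HTB replicate 2 and -0.04 without both, when 51 of 78 were below 0. In the same order the median over all tested genes was 0.019, -0.0063 and -0.0011. Of the 78 members, the authors' deposited table put 56 below 0, with a median of -0.06. HTB and LTB libraries did not overlap for 1 member, Mrpl4, which was lower in HTB, against 11.7% of all tested genes and 7.06% in that direction.

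Among large subunit proteins, 43 of 51 log2 fold changes were below 0, with a median of -0.07, and 0 passed the test. These were 27 of 51 and -0.02 without LTB replicate 1, and 48 of 51 and -0.13 without HTB replicate 2. Mrpl4, which lines the exit tunnel in bacteria as protein L4, had the smallest p of all members. It had 49.6, 46.6, 44.8, 46.3 and 47.0 CPM in the HTB tumours, against 56.5, 51.3, 51.3, 57.5 and 51.3 CPM in the LTB tumours. Every HTB tumour was below every LTB tumour, by little. The log2 fold change was -0.19 ± 0.06 (SE), with a 95% interval of -0.32 to -0.07, and edgeR's adjusted p was 0.0507, just above the threshold. DESeq2 gave an adjusted p of 0.0173 and the authors' deposited table a log2 fold change of -0.19 with a q-value of 0.019, so the call for Mrpl4 depends on the tool. Its adjusted p by edgeR was 0.0495 without HTB replicate 2 and 0.0950 without LTB replicate 1, and over all alternatives it ran from 0.0173 to 0.126.

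Mrpl13, the homologue of bacterial L13, had 74.3, 75.6, 72.7, 82.2 and 70.2 CPM in HTB, against 109.8, 75.3, 89.5, 91.9 and 77.6 CPM in LTB. The HTB tumours kept to a narrow range that the LTB tumours overlapped at its upper end, and LTB replicate 1 stood highest. Its log2 fold change was -0.24 ± 0.10 (SE), with an adjusted p of 0.132 by edgeR. Without LTB replicate 1 it was -0.16, with an adjusted p of 0.236, and over all alternatives the adjusted p ran from 0.0793 to 0.238.

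Mrpl43, a mitochondria-specific protein, had 27.5, 33.4, 26.7, 25.1 and 27.7 CPM in HTB, against 37.9, 28.3, 31.3, 35.8 and 32.4 CPM in LTB. HTB replicate 2 was the one HTB tumour inside the LTB range. The log2 fold change was -0.24 ± 0.10 (SE), with an adjusted p of 0.144 by edgeR, and without HTB replicate 2 it was -0.31 with an adjusted p of 0.0347. Over all alternatives the adjusted p of Mrpl43 ran from 0.0331 to 0.276. Mrpl21, the homologue of bacterial L21, had a log2 fold change of -0.18 ± 0.10 (SE) and an edgeR adjusted p of 0.259, with means of 25.6 ± 2.44 CPM in HTB and 29.1 ± 3.74 CPM in LTB (SD, n = 5 each). Neither gene passed the test over all 10 libraries.

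The proteins around the mouth of the exit tunnel, where nascent chains leave toward the inner membrane, were represented by 8 genes, 5 of them below 0 with a median of -0.03, or 4 and 0.02 without LTB replicate 1, and 7 and -0.06 without HTB replicate 2. Mrpl47, the homologue of bacterial L29, had 22.9, 20.4, 21.9, 21.6 and 19.6 CPM in HTB, against 31.6, 21.2, 22.7, 25.4 and 26.2 CPM in LTB. The LTB range began within the HTB range and reached well above it through replicate 1. Its log2 fold change was -0.26 ± 0.11 (SE), with an adjusted p of 0.138 by edgeR, and -0.17 with an adjusted p of 0.249 without LTB replicate 1. Mrpl45, which ties the ribosome to the inner membrane, averaged 58.7 ± 4.54 CPM in HTB and 64.6 ± 5.33 CPM in LTB (SD, n = 5 each), with a fitted log2 fold change of -0.14 and an edgeR adjusted p of 0.250. Mrpl17 averaged 55.3 ± 6.24 CPM in HTB and 54.6 ± 6.86 CPM in LTB (SD, n = 5 each), with a fitted log2 fold change of 0.02, or 0.09 without LTB replicate 1 and -0.05 without HTB replicate 2.

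The stalks, through which translation factors and tRNAs are handled, did not pass the test. Mrpl10, the stalk base, averaged 71.3 ± 3.06 CPM in HTB and 74.1 ± 5.68 CPM in LTB (SD, n = 5 each), and Mrpl12, the protein that recruits the factors, 62.0 ± 10.2 CPM in HTB and 68.0 ± 12.9 CPM in LTB. Mrpl11, which binds beside them, averaged 32.1 ± 4.39 CPM in HTB and 34.5 ± 4.34 CPM in LTB. Their log2 fold changes were -0.06, -0.13 and -0.10 in that order, and the interval of Mrpl12 ran from -0.44 to 0.17. In the same order they were -0.03, -0.01 and -0.03 without LTB replicate 1, and -0.08, -0.23 and -0.18 without HTB replicate 2. Mrpl1, of the stalk by the exit site, varied little in HTB: its HTB tumours ranged from 30.6 to 32.0 CPM, against 28.6 to 36.7 CPM in LTB, with a log2 fold change of -0.04, or 0.02 without LTB replicate 1.

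The central protuberance, the crest of the large subunit that faces the small one, was represented by 7 genes, and 7 of 7 had a log2 fold change below 0, from -0.24 for Mrpl46 to -0.00 for Mrpl48, with a median of -0.11, or 4 of 7 and -0.03 without LTB replicate 1, and 7 of 7 and -0.13 without HTB replicate 2. None of the 7 reached an unadjusted p under 0.05 by edgeR. Mrpl46 had the lowest level per library of these, 10.4 to 13.0 CPM in HTB, against 10.3 to 17.2 CPM in LTB, and its interval ran from -0.54 to 0.06. Of the remaining landmarks, Mrps18a averaged 43.2 ± 6.87 CPM in HTB and 45.4 ± 9.25 CPM in LTB (SD, n = 5 each), and Mrps30 50.0 ± 4.90 CPM in HTB and 52.5 ± 3.65 CPM in LTB. Both log2 fold changes were -0.07. Without LTB replicate 1 they were 0.05 for Mrps18a and -0.04 for Mrps30, and without HTB replicate 2 they were -0.18 for Mrps18a and -0.13 for Mrps30.

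Among small subunit proteins, 17 of 26 log2 fold changes were below 0, with a median of -0.05, and 0 passed the test. These were 10 of 26 and 0.03 without LTB replicate 1, and 20 of 26 and -0.11 without HTB replicate 2. The body and platform gave the largest differences. Mrps18b, a paralogue of bacterial S18, had 45.3, 54.2, 41.7, 40.8 and 37.7 CPM in HTB, against 65.1, 46.5, 47.9, 52.8 and 58.3 CPM in LTB. HTB replicate 2 lay inside the LTB range and the other 4 HTB tumours below it. The log2 fold change was -0.30 ± 0.12 (SE), with a 95% interval of -0.56 to -0.04 and an adjusted p of 0.122 by edgeR. Without HTB replicate 2 it was -0.39 with an adjusted p of 0.0257, and without LTB replicate 1 it was -0.23 with an adjusted p of 0.240, and these were the lowest and highest over all alternatives.

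Mammals have 3 paralogues of bacterial S18, which take different places in the mitoribosome. Mrps18c, the one in the position of bacterial S18, averaged 24.1 ± 1.80 CPM in HTB and 25.2 ± 4.95 CPM in LTB (SD, n = 5 each), with a log2 fold change of -0.07 and an interval of -0.34 to 0.21. It was 0.04 without LTB replicate 1 and -0.11 without HTB replicate 2. Mrps18a, on the large subunit, is given above. The intervals of the 3 genes overlapped, and the differences between their fold changes were not tested.

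Mrps16, the homologue of bacterial S16, had 23.4, 24.8, 20.9, 19.8 and 22.2 CPM in HTB, against 34.1, 25.7, 24.6, 29.3 and 22.0 CPM in LTB. The groups overlapped through LTB replicates 3 and 5, and LTB replicate 1 was again the highest. The log2 fold change was -0.29 ± 0.12 (SE), with an adjusted p of 0.136 by edgeR, and -0.19 without LTB replicate 1, with an adjusted p of 0.256. Over all alternatives its adjusted p ran from 0.0267, with voom and sample quality weights, to 0.264. Mrps5, the homologue of bacterial S5, averaged 66.1 ± 2.54 CPM in HTB and 72.1 ± 4.52 CPM in LTB (SD, n = 5 each), with a log2 fold change of -0.13 ± 0.06 (SE) and an edgeR adjusted p of 0.174. Mrps12, of the decoding centre, averaged 19.6 ± 2.93 CPM in HTB and 19.9 ± 2.52 CPM in LTB, with a log2 fold change of -0.03, or 0.03 without LTB replicate 1 and -0.12 without HTB replicate 2.

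The highest positive value of any member was that of Mrps6, the homologue of bacterial S6. It had 34.5, 49.2, 37.2, 37.4 and 28.7 CPM in HTB, against 34.1, 30.8, 31.1, 31.3 and 36.7 CPM in LTB. The HTB tumours held both the highest and the lowest value, with replicate 2 at the top. The log2 fold change was 0.19 ± 0.13 (SE), with an adjusted p of 0.342 by edgeR. It was 0.07 with an adjusted p of 0.585 without HTB replicate 2, and 0.20 with an adjusted p of 0.388 without LTB replicate 1. Mrps27, a mitochondria-specific protein with pentatricopeptide repeats, averaged 41.6 ± 3.97 CPM in HTB and 39.0 ± 1.23 CPM in LTB, and Mrpl33 45.2 ± 3.93 CPM in HTB and 41.9 ± 5.53 CPM in LTB (SD, n = 5 each). Neither passed the test. With HTB replicate 2 left out, their log2 fold changes were 0.04 for Mrps27 and 0.06 for Mrpl33, and over all 10 libraries 0.09 and 0.11. Without LTB replicate 1 that of Mrpl33 was 0.19.

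In the head of the small subunit, 3 of 7 genes were below 0 and the median was 0.05, against 13 of 17 and -0.06 in the body. Without LTB replicate 1 these were 2 of 7 and 0.07 in the head, and 7 of 17 and 0.01 in the body. Without HTB replicate 2 they were 4 of 7 and -0.00 in the head, and 14 of 17 and -0.11 in the body. Mrps14, in the head, averaged 22.3 ± 2.12 CPM in HTB and 24.96 ± 2.27 CPM in LTB (SD, n = 5 each), with a fitted log2 fold change of -0.17 and an edgeR adjusted p of 0.236. It was -0.11 without LTB replicate 1 and -0.22 without HTB replicate 2. Mrps36 averaged 24.0 ± 2.15 CPM in HTB and 23.5 ± 3.92 CPM in LTB, a log2 fold change of 0.03, or 0.11 without LTB replicate 1 and -0.02 without HTB replicate 2. By ancestry, 40 of the 48 members with a bacterial homologue were below 0, with a median of -0.07, and 20 of the 29 mitochondria-specific members, with a median of -0.02. Without LTB replicate 1 they were 26 of 48, with a median of -0.02, and 11 of 29, with a median of 0.03. With HTB replicate 2 left out they were 44 of 48, with a median of -0.13, and 24 of 29, with a median of -0.08. Differences between these classes were not tested.

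**Figure D3:**
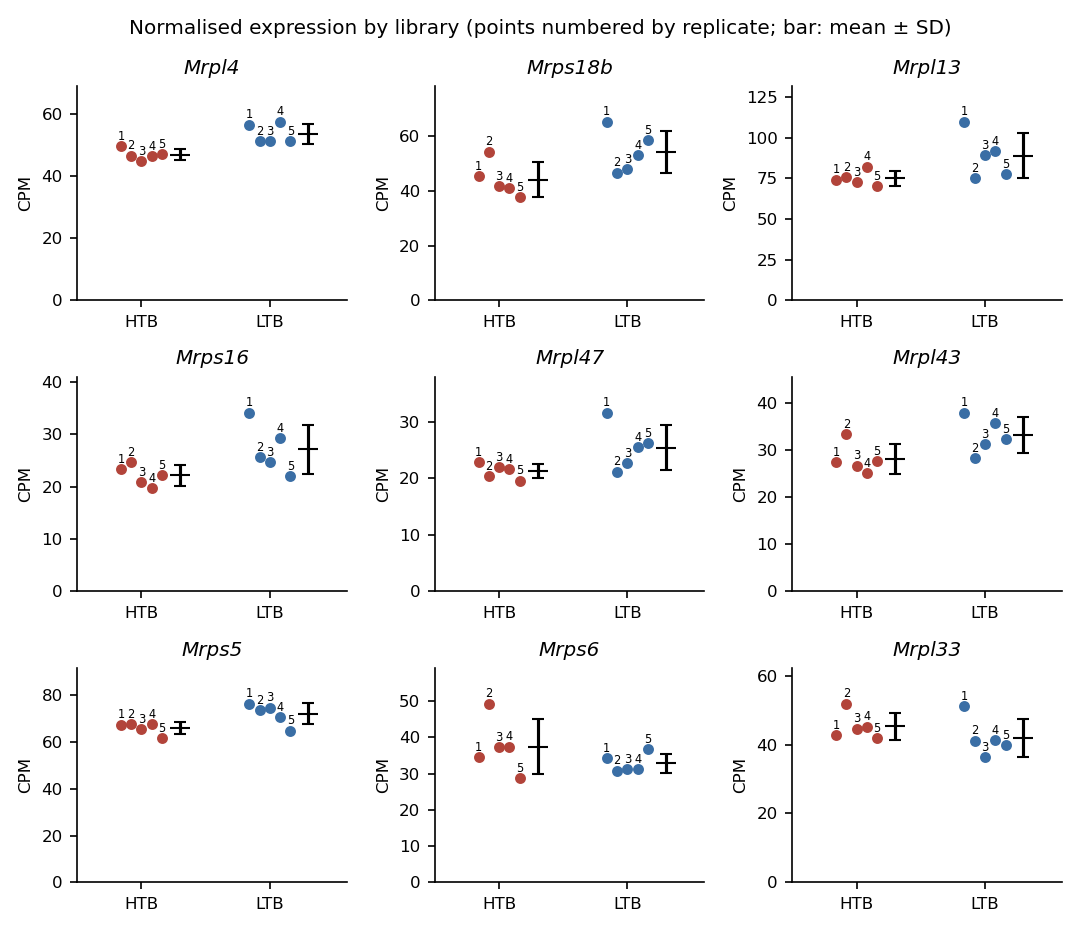
Normalised expression in CPM of 9 members in each tumour, HTB left of LTB, with points numbered by replicate and bars for the mean ± SD (n = 5 a group); the first 7 panels are members with the smallest p, and the last 2, Mrps6 and Mrpl33, those with the highest log2 fold changes. Mrpl4 is the one panel in which no HTB point reaches the LTB points, and LTB replicate 1 or HTB replicate 2 tops its group in most panels.

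The members shared a level that differed from tumour to tumour within both groups. Relative to each gene's own mean over the 10 libraries, the median member stood at -0.05, 0.14, -0.03, -0.08 and -0.14 (log2) in the HTB tumours, against 0.24, -0.06, -0.06, 0.08 and -0.09 in the LTB tumours. LTB replicate 1 and HTB replicate 2 were high, and HTB replicate 5 had the lowest median. The number of members above their own mean was 75 of 78 in LTB replicate 1, 69 of 78 in HTB replicate 2 and 4 of 78 in HTB replicate 5. The highest of the 10 libraries was LTB replicate 1 for 48 members and HTB replicate 2 for 17. The lowest was LTB replicate 5 for 25 and HTB replicate 5 for 19. These counts were not made over all tested genes, so whether the shared level is particular to the members was not tested.

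**Figure D4:**
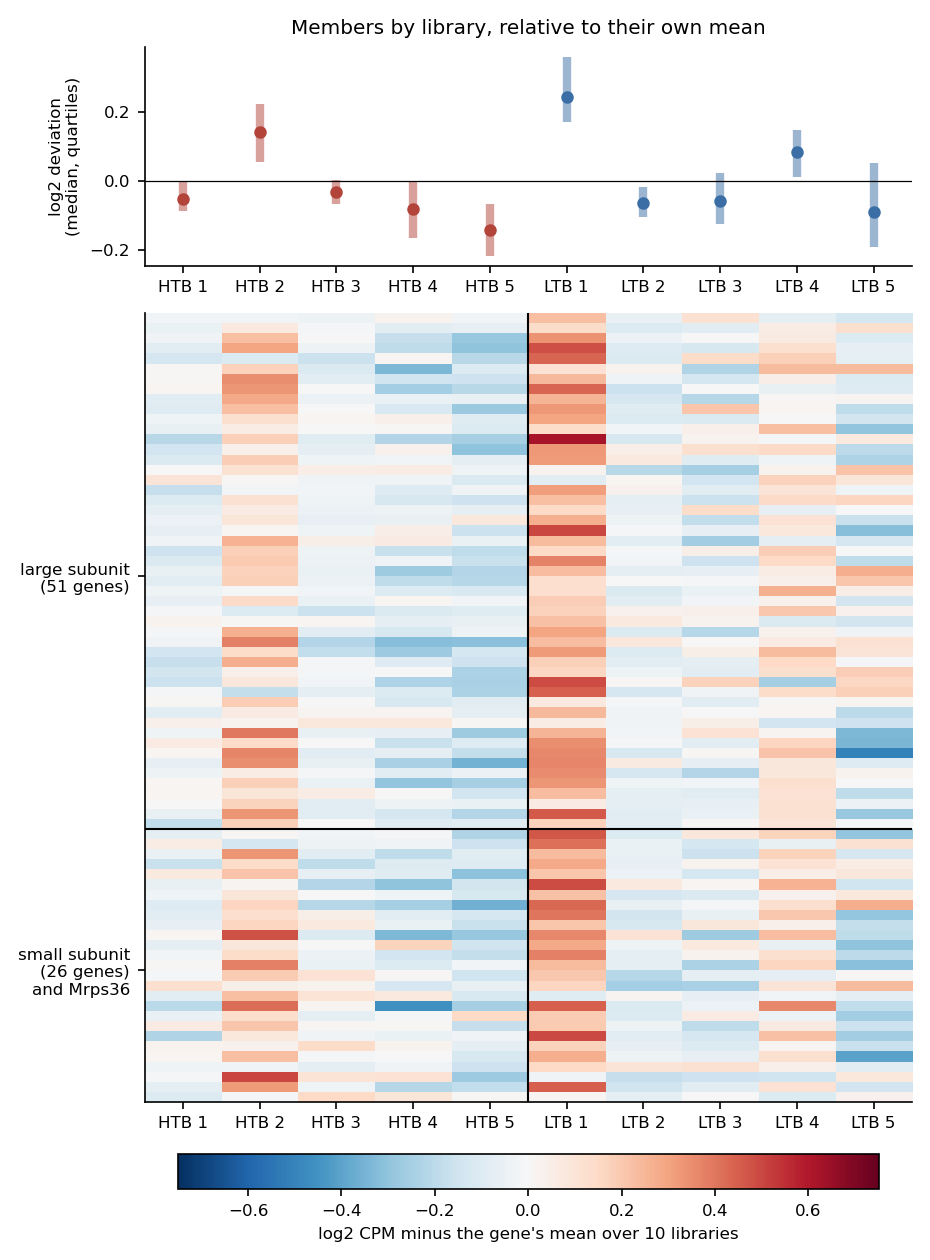
Top, the median (point) and quartiles (bar) over the 78 members of the log2 difference from each gene's own mean, per tumour, HTB in red left of LTB in blue; bottom, the same difference gene by gene, large subunit above small, as log2 CPM minus the gene's mean over 10 libraries. The column of LTB replicate 1 is red almost throughout, with a median of 0.24, and that of HTB replicate 5 mostly blue, with a median of -0.14.

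Summed over the 78 genes, the level was 3023.9, 3468.9, 3061.1, 2967.5 and 2833.7 CPM in HTB, against 3728.5, 3008.1, 3035.8, 3290.0 and 3012.7 CPM in LTB. The groups overlapped, with means of 3071 ± 239 CPM in HTB and 3215 ± 310 CPM in LTB (SD, n = 5 each) and a ratio of 0.955. The members took between 0.287% and 0.367% of all reads. In HTB replicate 2, the tumour with the muscle and fat markers given above, the 84 nuclear-encoded respiratory chain genes also summed highest, to 9997 CPM, against 7218 to 7553 CPM in the other HTB tumours. In LTB replicate 1, the tumour with the highest T cell markers, they summed to 8846 CPM, against 7385 to 8313 CPM in the other LTB tumours. The part of these markers in the members' levels was not tested. The sum over 85 cytosolic ribosomal protein genes ranged from 67712 to 70555 CPM in HTB, against 60041 to 76577 CPM in LTB.

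Leaving out the 2 outlying tumours changed some calls. Without HTB replicate 2, 5 members were called, all 5 lower in HTB, which was 6.41% of members where 22.4% of all tested genes were called. They were Mrpl42 at a log2 fold change of -0.31 and an adjusted p of 0.0174 by edgeR, Mrps18b at -0.39, Mrpl43 at -0.31, Mrpl37 at -0.21 and Mrpl4 at -0.19. Over all 10 libraries Mrpl42, a mitochondria-specific large subunit protein, had 62.5, 82.6, 54.7, 50.97 and 51.1 CPM in HTB, against 74.5, 67.4, 63.8, 66.3 and 68.9 CPM in LTB. HTB replicate 2 was its highest library of all, and the other 4 HTB tumours lay below every LTB tumour. With both HTB replicate 2 and LTB replicate 1 left out, 3 of these 5 genes were called (Mrpl42, Mrpl43 and Mrps18b), 3.85% of members against 21.6% of all tested genes. Without LTB replicate 1 alone, 0 were called by edgeR, against 8.30% of all tested genes. In that fit 2 members had an unadjusted p under 0.05, and the share of all genes at that threshold was not counted.

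Some macrophage and most T cell markers were lower in HTB over the same libraries. The 10 macrophage markers had sums of 764 to 1331.5 CPM in HTB, against 1196 to 2329 CPM in LTB, with 3 of 10 lower by the edgeR test and 0 higher. The 9 T cell markers had sums of 47.4 to 101 CPM in HTB, against 105 to 352 CPM in LTB, with 7 of 9 lower and 0 higher. The 10 fibroblast markers had sums of 6967 to 10614 CPM in HTB, against 5504 to 8110 CPM in LTB, and 0 passed the test. Of the 6 muscle markers tested 3 were higher in HTB, and of the 3 adipocyte markers tested 0 passed. The sum of the 12 muscle markers was 15808 CPM in HTB replicate 2, against 11.01 to 68.2 CPM in the other HTB tumours. The part of all these markers in the members' values was not tested.

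Levels can be compared between genes only per unit of length, for which the authors' deposited mean expression values were used. Their unit is not named. That they are scaled for length is read from the values, since the ratio of CPM to this value gives lengths of 310 to 6617 bases for the members, and the order below rests on that reading. They carry no error of their own. The highest by the authors' mean over both groups were Mrpl52 at 151, Mrpl33 at 121 and Mrpl13 at 120. The lowest were Mrpl17 at 8.30, Mrpl19 at 8.73 and Mrpl41 at 9.22. The inferred lengths are computed from these same values, so they cannot serve as a check on the order. Mrpl52 had the shortest, 310 bases, and Mrpl17 the longest, 6617 bases. By CPM, without length, Mrpl17 averaged 55.3 in HTB and Mrpl52 45.7. The median member stood at 38.2 in the authors' table, against 5.62 over all its genes, which include those that failed the filter on low counts. Among tested genes only, and by CPM without length, the median was 41.2 for the members against 32.6 for all. Large subunit genes had a median of 38.6 and small subunit genes of 35.6.

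The genes are spread over 17 chromosomes, with 11 on chromosome 11, 8 on 17 and 7 on 6. By GENCODE M21 starts (GRCm38), another gene of the table starts within 1000 bases on the opposite strand for 32 of 78 (41.0%), against 12.4% of the 17715 genes with a start there. The annotation was used because the deposited strand differs from it for 5 members (Mrpl48, Mrps12, Mrps22, Mrps24 and Mrps28). Such neighbours include Sars2, the mitochondrial seryl-tRNA synthetase, beside Mrps12, Twnk, the mitochondrial DNA helicase, beside Mrpl43, Ndufb5, a subunit of respiratory complex I, beside Mrpl47, and Fau, which encodes a cytosolic ribosomal protein, beside Mrpl49. In 1 case both partners are members: Mrps11 and Mrpl46 start 412 bases apart on chromosome 7 by GENCODE. RefSeq places the start of Mrpl46 elsewhere, inside the Mrps11 promoter window printed below. Mrps11 averaged 15.3 ± 0.90 CPM in HTB and 16.8 ± 2.69 CPM in LTB, and Mrpl46 11.4 ± 1.15 CPM in HTB and 13.5 ± 2.52 CPM in LTB (SD, n = 5 each), and neither passed the test. Whether the counting used strand is not stated in the labels or the file, and reads in overlaps of neighbouring genes cannot be told apart. By RefSeq spans, 20 of 78 members (25.6%) overlap another gene of the table, against 19.1% of all genes, and 15 of 78 (19.2%) had fractional read values, against 19.5% of all genes, which can arise where reads are shared among copies.

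Promoter windows of 300 bases, 250 before and 50 after the start, were matched in RefSeq (GRCm38.p6) for 69 of the 78 members; Mrpl13, Mrpl15, Mrpl19, Mrpl38, Mrpl4, Mrpl54, Mrps28, Mrps34 and Mrps35 are named only. They are shown because NRF1, factors of the ETS family such as GABP, and YY1 are known regulators of nuclear genes for mitochondria. The part of these motifs in the members' levels was not tested. The letters of 4 motifs were searched on both strands. Mrpl2, Mrpl48 and Mrps16 had more than 1 window, and a gene was counted if any of its windows held the letters. The ETS letters CCGGAAGT stood in a window of 12 members (17.4%), against 6.86% of the 14248 genes of the table with a window. The YY1 letters AAGATGGCG stood in those of 8 members (11.6%), against 2.6%. The palindromic NRF1 motif, in capitals in the Mrpl9 window below, stood in those of 3 members (4.35%), against 1.76%. The E-box CACGTG stood in those of 5 members (7.25%), against 10.2%. At least 1 of the first 3 motifs was found for 22 of 69 members (31.9%), against 10.8% of genes. A match is a description of the letters only. The windows below are 5′ to 3′ on the gene's strand with the motif in capitals. That of Mrps11 (chr7:78782881-78783180, plus strand, YY1 letters on the reverse strand) holds the RefSeq starts of both Mrps11 and Mrpl46, those of Mrpl42 (chr10:95501900-95502199, minus strand, YY1) and Mrpl43 (chr19:45006393-45006692, minus strand, ETS) belong to genes called without HTB replicate 2, and that of Mrpl9 (chr3:94443086-94443385, plus strand) is 1 of the 3 with the NRF1 motif.
Mrps11: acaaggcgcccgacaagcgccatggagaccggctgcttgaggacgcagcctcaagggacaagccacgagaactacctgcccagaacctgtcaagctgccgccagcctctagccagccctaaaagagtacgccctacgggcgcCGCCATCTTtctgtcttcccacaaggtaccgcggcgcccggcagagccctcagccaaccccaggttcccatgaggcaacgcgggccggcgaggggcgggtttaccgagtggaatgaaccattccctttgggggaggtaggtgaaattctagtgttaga
Mrpl42: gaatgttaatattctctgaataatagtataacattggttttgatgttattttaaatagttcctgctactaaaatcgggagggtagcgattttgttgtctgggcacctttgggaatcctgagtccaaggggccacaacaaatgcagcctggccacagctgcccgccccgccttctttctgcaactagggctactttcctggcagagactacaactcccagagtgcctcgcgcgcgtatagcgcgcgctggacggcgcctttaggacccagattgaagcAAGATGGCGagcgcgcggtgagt
Mrpl43: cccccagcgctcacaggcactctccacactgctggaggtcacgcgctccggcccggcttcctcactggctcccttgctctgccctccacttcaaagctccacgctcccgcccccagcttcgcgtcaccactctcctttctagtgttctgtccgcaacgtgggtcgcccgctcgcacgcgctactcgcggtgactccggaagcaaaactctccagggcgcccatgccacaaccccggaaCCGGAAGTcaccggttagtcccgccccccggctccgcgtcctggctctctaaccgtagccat
Mrpl9: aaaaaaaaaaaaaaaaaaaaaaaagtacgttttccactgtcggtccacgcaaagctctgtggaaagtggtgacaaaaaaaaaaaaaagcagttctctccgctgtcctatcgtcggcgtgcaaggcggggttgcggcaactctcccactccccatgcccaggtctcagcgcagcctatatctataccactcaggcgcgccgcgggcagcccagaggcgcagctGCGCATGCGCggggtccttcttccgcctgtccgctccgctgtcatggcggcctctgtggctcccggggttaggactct

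Few other genes of mitochondrial translation were called, where 11.4% of all tested genes were. Of 6 genes listed as mitoribosomal proteins with other names, 0 passed the test and 5 were below 0, with a median of -0.07. The exception was Oxa1l, with a log2 fold change of 0.16, which inserts new chains into the inner membrane and is not a ribosomal protein itself. Oxa1l averaged 68.9 ± 3.61 CPM in HTB and 61.6 ± 4.65 CPM in LTB (SD, n = 5 each). Dap3, a GTP-binding small subunit protein, averaged 73.4 ± 4.38 CPM in HTB and 79.1 ± 6.25 CPM in LTB. Of 27 assembly factors 0 passed, with a median of 0.01. Ddx28, an RNA helicase of large subunit assembly, had 14.7 to 18.3 CPM in HTB, against 18.6 to 21.0 CPM in LTB, without overlap. Its log2 fold change was -0.24 ± 0.08 (SE) with an adjusted p of 0.0766 by edgeR. Mterf4, which brings an RNA methyltransferase to the large subunit, had a log2 fold change of 0.24 ± 0.11 (SE) and an adjusted p of 0.171.

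Of 15 translation factors, 1 rose and 0 fell (6.67% called, against 11.4% of all tested genes). Guf1, the mitochondrial relative of bacterial elongation factor LepA, averaged 47.5 ± 4.70 CPM in HTB and 38.3 ± 2.14 CPM in LTB (SD, n = 5 each), with a fitted log2 fold change of 0.31 ± 0.08 (SE) and an adjusted p of 0.0285 by edgeR. Of 20 mitochondrial aminoacyl-tRNA synthetases and amidotransferase subunits, 2 rose and 0 fell (10.0% called, close to the 11.4% of all tested genes). Gatc, a subunit of the amidotransferase that completes glutaminyl-tRNA, averaged 47.3 ± 3.96 CPM in HTB and 39.2 ± 0.58 CPM in LTB (SD, n = 5 each), with every HTB tumour above every LTB tumour, a log2 fold change of 0.27 and an adjusted p of 0.0231. Iars2, the isoleucyl-tRNA synthetase, averaged 73.4 ± 8.56 CPM in HTB and 57.0 ± 4.17 CPM in LTB, a log2 fold change of 0.37 and an adjusted p of 0.0275. Leaving out 1 library ended these calls in some cases: 0 of the 15 factors and 0 of the 20 synthetases and amidotransferase subunits passed without HTB replicate 3 or without HTB replicate 4.

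Of 14 genes of mitochondrial DNA maintenance and transcription 0 passed the test, with a median of 0.04. Primpol, a primase-polymerase, had a log2 fold change of -0.24 and an edgeR adjusted p of 0.134, and Mterf1a, a transcription terminator, 0.18 and 0.222. Of 12 regulators of mitochondrial biogenesis 10 were tested and 0 passed. Gabpa, the DNA-binding subunit of GABP, averaged 95.8 ± 8.49 CPM in HTB and 81.6 ± 10.4 CPM in LTB (SD, n = 5 each), with a fitted log2 fold change of 0.23 and an adjusted p of 0.142 by edgeR. Gabpb1, its partner subunit, had a log2 fold change of -0.18 and an adjusted p of 0.235. Of 82 tested cytosolic ribosomal protein genes 1 rose, Rpl21, with a log2 fold change of 0.36 ± 0.08 (SE) and an edgeR adjusted p of 0.0215, and their median was 0.01. Of 82 tested respiratory chain genes 0 passed, with a median of -0.00. Ndufa4 had a log2 fold change of 0.47 ± 0.18 (SE) and Cox5a, a subunit of cytochrome c oxidase, of -0.48 ± 0.20 (SE), with edgeR adjusted p of 0.116 and 0.134. Without HTB replicate 2, 8 respiratory chain genes were called, where 22.4% of all tested genes were. The differences between the lists and the mitochondrial ribosomal proteins were not tested.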

How the data were processed

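RNA-seq was made from 10 whole tumours. The deposited table gives the authors' estimated counts per gene and library, the authors' mean expression values, a signal with no named unit that behaves as scaled for length, and the authors' own log2 fold changes with p-values and q-values, per the file headers. The builds GRCm38 and mm10 are named in the submitters' processing notes. Which aligner and counter were used, and whether strand was used, is not given in the sources used here.

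Values that were not whole were rounded (86.4% were whole within 1e-09, and none moved by over 0.5), and 1 row with no gene was left out. Library totals were 23070917 to 27185168, and no member fell under 259 reads. edgeR's quasi-likelihood test (edgeR 4.0.16, R 4.3.3; filterByExpr, TMM factors 0.971 to 1.03) compared HTB with LTB in 10 libraries, with no other term, on 13469 genes, with Benjamini-Hochberg adjustment over all of them and a threshold of 0.05; intervals are 95%. CPM values use TMM-scaled totals. Gene starts and strands were read from GENCODE M21. The script was tested on simulated data. Alternatives were limma voom (limma 3.58.1), DESeq2 1.42.0, other scalings and filters, a replicate block, and fits with libraries left out. No 2 libraries were alike within sampling noise.

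The members, the gene lists, the subunit assignments and the tests were chosen with earlier results of these data known. The genes named were those passing the test, the 10 members of smallest p, the 3 highest and 3 lowest fold changes, the 3 highest and 3 lowest levels per length, 11 landmark proteins, and in each list those that passed or else the 2 of smallest p; Mrpl42, Mrpl37, Mrpl46, Mrpl48, Mrps11, Mrps28 and the members printed with a promoter were chosen after their values were seen.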

Additional observations from a re-analysis of the deposited data

Results flagged for a closer look

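Of 86 groups of 5 tumours examined for a library far from the others, 11 held one by Dixon's criterion. Only members named by rule and the summed lists were examined. Members named only after their values were seen, and those not named, were not. Chance gives such a library in about 1 in 20 groups that are independent. These groups share the same tumours, so the 11 cannot be set against that rate. HTB replicate 2 was set apart as the highest HTB tumour in 8 of the 11 groups. It had 66.4 CPM of Mrpl17, against 51.8 to 52.9 in the other HTB tumours, 25.9 CPM of Mrps14 against 20.6 to 22.0, 25.6 CPM of Mrpl41 against 19.6 to 21.1, 24.7 CPM of Mrps12 against 17.2 to 18.9, and 55.1 CPM of Mrps18a against 37.6 to 42.1. In the same tumour the summed respiratory chain genes stood at 9997 CPM, the skeletal muscle markers at 15808 CPM and the adipocyte markers at 8321 CPM. LTB replicate 1 had 52.5 CPM of Mrpl19, against 38.9 to 42.7 in the other LTB tumours, and 352 CPM of summed T cell markers, against 105 to 166. HTB replicate 4 had 32.0 CPM of Mrpl1, against 30.6 to 31.0 in the other HTB tumours, a gap that is large only beside the narrow range of that gene.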

How the results depend on the processing

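In all 20 other settings 78 of 78 intervals lay within 2-fold, and 73 to 78 within 1.5-fold. With 1 library left out the members' median ran from -0.12 to 0.01, that of the large subunit from -0.13 to -0.02 and that of the small subunit from -0.11 to 0.03. The sign of the members' and the small subunit's medians turned without LTB replicate 1. In that fit the members' median was 0.014, against 0.019 over all tested genes. With plain library totals 2 cytosolic ribosomal protein genes were called. DESeq2 called 2449 genes, 1 member (Mrpl4), 1 assembly factor, 2 translation factors and 4 cytosolic ribosomal proteins. Voom with sample quality weights called 3593 genes (26.7%), 5 members (Mrpl4, Mrpl42, Mrpl43, Mrps16 and Mrps18b), 3 assembly factors, 3 translation factors, 1 gene of mitochondrial DNA maintenance, 1 biogenesis regulator, 3 cytosolic ribosomal proteins and 7 respiratory chain genes. Without HTB replicate 2 and LTB replicate 1 together, 2908 genes, 3 members, 1 assembly factor, 3 translation factors, 1 gene of mitochondrial DNA maintenance, 1 biogenesis regulator, 2 cytosolic ribosomal proteins and 7 respiratory chain genes were called.

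Leaving out 1 library at a time gave 739 (without HTB replicate 3) to 3040 genes called (without HTB replicate 2), 0 to 5 members called, 37 to 69 members below 0, 0 to 2 assembly factors, 0 to 3 translation factors, 0 to 3 aminoacyl-tRNA synthetases, 0 to 1 genes of mitochondrial DNA maintenance, 0 to 1 biogenesis regulators, 0 to 4 cytosolic ribosomal proteins and 0 to 8 respiratory chain genes.

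Some log2 fold changes close to 0 changed sign with no call. With 1 library left out, Mrpl41 ranged from -0.068 to 0.085, Mrpl17 from -0.054 to 0.091, Mrpl19 from -0.018 to 0.099, Mrps36 from -0.054 to 0.11, Mrps12 from -0.12 to 0.032, Mrpl1 from -0.074 to 0.018, Mrpl52 from -0.12 to 0.051, Mrps18a from -0.18 to 0.049 and Mrps18c from -0.14 to 0.037. Mrpl41 was -0.0019 with a filter of 1 CPM in 5 libraries, -0.0023 with voom and -0.0016 with quality weights. Mrpl1 was 0.0066 with quality weights and 0.021 without both libraries, and Mrpl52 was 0.011 without both.

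The replicate numbers are not stated to pair the samples. The deviations of same-numbered tumours correlated at 0.07, -0.02, -0.02, 0.10 and 0.09, and only 2 of 5 numbers correlated best with their own. Such correlations cannot show whether the tumours were paired by design. With the number as a replicate block, 971 genes, 0 members, 0 translation factors, 1 aminoacyl-tRNA synthetase and 0 cytosolic ribosomal proteins were called, and 56 members were below 0.

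The cause of these changes was not tested. With 5 libraries a group, differences smaller than the intervals given were not detectable, and the intervals cover these libraries only.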
